A study of Rattus norvegicus with 6 samples.

Results

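10 rat genes of MHC class II antigen presentation and of lymphocytes were examined in the heart after myocardial ischemia/reperfusion injury (MI/RI). The genes were chosen by name from the 28293 genes in the table. They comprised the class II chain genes RT1-Da, RT1-Db1, RT1-Ba and RT1-Bb, the invariant chain gene Cd74, the class II transactivator gene Ciita, and the lymphocyte genes Cd3e, Cd8a, Cd79b and Nkg7. Myocardial RNA came from 3 sham rats and 3 MI/RI rats, all male and wild-type (WT). MI/RI was made by tying off the left anterior descending artery for 30 min, and hearts were taken after 6 h of reperfusion. The labels give the same 30 min and 6 h for the sham rats and carry 1 surgical description (anesthesia, ventilation, left thoracotomy) for both groups. They do not state the strain, the age or the region of the heart that was sampled.

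MHC class II molecules are cell-surface heterodimers of an alpha and a beta chain that show peptides to CD4+ T cells. The rat genes are called RT1, with RT1-D for the chains related to human HLA-DR and RT1-B for those related to HLA-DQ. Dendritic cells, B cells and many macrophages carry class II, and other cells can be induced to make it by interferon gamma through CIITA, the coactivator that is recruited to class II promoters by proteins bound to their X and Y boxes. In the heart, resident macrophages and dendritic cells are the usual class II-bearing cells, and T, B and natural killer (NK) cells are a small part of the tissue.

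The promoters of the RT1 chain genes are shown first, because all 4 chain genes rose in MI/RI and the X and Y boxes are where class II regulators bind. RefSeq windows (build GRCr8) that run from 250 bases before to 50 bases after the gene start were found for 8 of the 10 genes. Ciita and Cd79b had no entry. The letters searched on both strands were CTGATTGG for the Y box and GNNACNGATG for the X box, and they were taken from these promoters themselves: the Y letters are the longest run common to all 4, and the X letters are those common to RT1-Da, RT1-Db1 and RT1-Bb. The matches in these genes are therefore no finding. The only counts drawn from the letters are shares over all windows, and these include the 4 source promoters. The X and Y letters do not overlap. In the sequences below, each printed in the direction of its gene, capitals mark the X box letters and then the Y box letters.
RT1-Da, chr20:4515313-4515382, plus strand: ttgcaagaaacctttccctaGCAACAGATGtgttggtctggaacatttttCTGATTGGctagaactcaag
RT1-Db1, chr20:4560226-4560295, minus strand: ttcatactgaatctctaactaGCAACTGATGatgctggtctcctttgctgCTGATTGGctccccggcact
RT1-Bb, chr20:4604163-4604232, minus strand: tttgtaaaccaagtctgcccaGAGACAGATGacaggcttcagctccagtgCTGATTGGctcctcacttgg
RT1-Ba, chr20:4576961-4577030, plus strand: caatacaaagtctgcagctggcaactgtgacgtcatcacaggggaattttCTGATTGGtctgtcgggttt

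In RT1-Da 20 bases lay between the boxes, and in RT1-Db1 and RT1-Bb 19 bases did. The Y box letters began 52 bases before the gene start in RT1-Da, 83 in RT1-Db1, 64 in RT1-Bb and 46 in RT1-Ba. RT1-Ba held the Y box letters without a match to the X box letters, which were not taken from its promoter. Of 33469 windows of 300 bases, 3.5% held the Y box letters and 2.84% the X box letters. An X box followed by a Y box on 1 strand, 5 to 35 bases apart, was found in 4 windows (0.012%). They were those of RT1-Da, RT1-Db1, RT1-Bb and RT1-Db2, a close copy of RT1-Db1. The letters came from RT1-Da, RT1-Db1 and RT1-Bb, so their matches were fixed in advance, and RT1-Db2 is the only other promoter. The windows of Cd74, Cd3e, Cd8a and Nkg7 held neither set of letters. A match or its absence describes these letters only and does not show whether a promoter has a box.

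Levels were deposited as FPKM, fragments per kilobase of gene scaled to library size, so levels of different genes can be compared per length. The summed FPKM ranged from 894902 to 928941 in sham and from 731063 to 825490 in MI/RI. The 13 mRNAs encoded by mitochondrial DNA took 80.1% to 86.2% of that sum in sham and 61.8% to 71.5% in MI/RI. Among the 10942 genes with a mean of at least 0.5 FPKM, which were tested with limma on log2(FPKM + 0.1), the median log2 difference between MI/RI and sham was 0.29, so that a typical gene also stood above 0. The labels number the 3 samples of a group without saying that each came from a separate rat. They are called rats here, and p-values measure the spread between these samples, which may be technical. In bulk tissue, fewer cells of a type and less RNA per cell cannot be told apart.

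All 5 class II genes, the chains and Cd74, rose in MI/RI, by 1.89-fold to 3.26-fold in mean FPKM, and the groups overlapped in none of them. Of the lymphocyte genes, Cd8a fell to 0.281 of its sham mean, Nkg7 was not called, and Cd3e and Cd79b were too low to enter the test. Thus 7 of the 10 genes were tested. Of these, 5 were called higher at an adjusted p under 0.05 in limma, where 25.5% of all genes tested were called higher. 1 was called lower, where 7.36% of all genes were. The groups did not overlap in 5 genes that stood higher in MI/RI (background 37.2% of genes tested) and in 1 that stood lower (background 13.0%). The share of upward calls among the 7 genes was above this background. Rises were more common among abundant genes, so this background is low for most of the class II genes. At a filter of 5 FPKM, 1892 of 3784 genes were called higher in limma, and 4 of the 5 genes examined here that were tested.

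**Figure D1:**
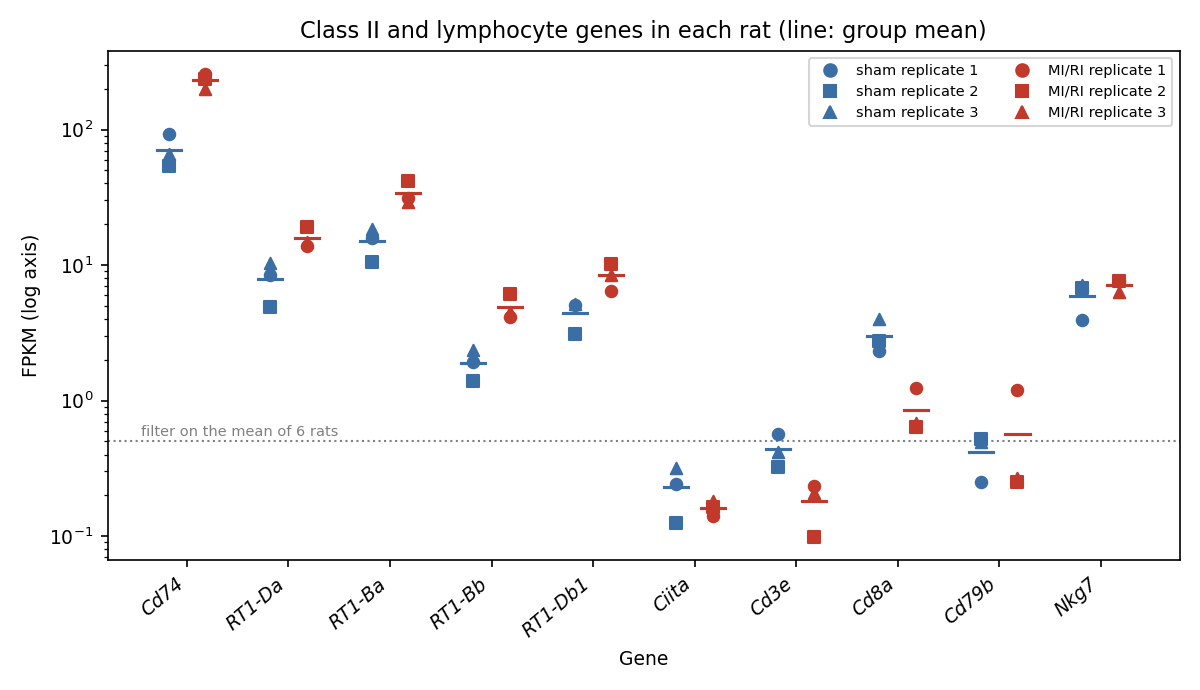
FPKM (log axis) of the 10 genes in each of the 3 sham rats (blue) and 3 MI/RI rats (red), with a line at each group mean and a dotted line at the filter of 0.5 FPKM. The 5 class II genes stand higher in all 3 MI/RI rats than in any sham rat, Cd8a and Cd3e stand lower, and Cd79b in MI/RI ranges from 0.251 to 1.19 FPKM.

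Cd74 encodes the invariant chain, which escorts new class II dimers to the endosome and fills their groove until peptide is loaded. It was the most abundant of the 10 genes. In order of replicates 1 to 3, as for all values by sample here, its level read 92.4, 53.8 and 66.3 FPKM in sham and 258, 236 and 199 FPKM in MI/RI. Every MI/RI rat was above every sham rat. The means were 70.8 ± 19.7 and 231 ± 29.6 FPKM (SD, n = 3 each), a log2 difference of 1.73 (SE 0.27, limma adjusted p = 0.0033). The FPKM steps correspond to at least 6176 fragments in each rat (fragment numbers here are the smallest whole numbers that give a gene's FPKM values), so counting error is small beside the spread between rats. Of all genes tested, 5.87% had a larger log2 difference. Among the 110 genes within 0.5 log2 units of its mean level, the median log2 difference was 1.02, and 25.5% exceeded that of Cd74.

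RT1-Ba and RT1-Bb encode the alpha and beta chains of the RT1-B molecule. RT1-Ba was at 16.0, 10.6 and 18.5 FPKM in sham and at 31.4, 41.6 and 29.2 FPKM in MI/RI. All 3 MI/RI rats were above the sham rats, with replicate 2 highest. The log2 difference was 1.20 (SE 0.27, limma adjusted p = 0.010). RT1-Bb was at 1.91, 1.40 and 2.38 FPKM in sham and at 4.12, 6.14 and 4.49 FPKM in MI/RI. The groups did not overlap, and in both chains replicate 2 was the lowest of the sham rats and the highest of the MI/RI rats. RT1-Bb rose by 1.34 on the log2 scale (SE 0.26, limma adjusted p = 0.0064). Among 2369 genes of like level, 7.43% had a larger log2 difference than RT1-Bb, whereas 29.5% of 580 genes did so for RT1-Ba.

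RT1-Da and RT1-Db1 encode the chains of the RT1-D molecule. RT1-Da was at 8.44, 4.95 and 10.4 FPKM in sham and at 13.8, 19.1 and 14.9 FPKM in MI/RI. The groups did not overlap, and sham replicate 3 came nearest to the MI/RI rats. The log2 difference was 1.05 (SE 0.30, limma adjusted p = 0.024). RT1-Db1 was at 5.06, 3.09 and 5.17 FPKM in sham and at 6.41, 10.2 and 8.50 FPKM in MI/RI. The groups did not overlap here either. RT1-Db1 had the smallest log2 difference of the 5 class II genes, at 0.91 (SE 0.28, limma adjusted p = 0.031). Among 1175 genes of like level, 28.3% had a larger log2 difference than RT1-Da, and 23.8% of 1857 genes did so for RT1-Db1. Leaving out sham replicate 2, the sham rat with the lowest level of both chains, gave a log2 difference of 0.75 for RT1-Da (limma adjusted p = 0.077) and 0.68 for RT1-Db1 (limma adjusted p = 0.10). Without MI/RI replicate 2 the calls of both genes were also lost, at adjusted p = 0.077 and 0.10 in limma. RT1-Db1 was further lost without sham replicate 3 (adjusted p = 0.052) and without MI/RI replicate 3 (adjusted p = 0.076) in limma. RT1-Db2, a near copy named here after its values were seen, was at 0.320 to 0.470 FPKM in sham and 0.171 to 0.278 FPKM in MI/RI. How fragments common to both copies were counted is not given in the sources used here, so both levels are uncertain.

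The ratio of the alpha chain to the beta chain varied little between rats. RT1-Ba over RT1-Bb lay between 6.52 and 8.34, and RT1-Da over RT1-Db1 between 1.60 and 2.16, and the groups overlapped in both (exact permutation p = 0.2 and 0.4, two-sided). The ratio of Cd74 to RT1-Da was 10.9, 10.9 and 6.39 in sham and 18.6, 12.4 and 13.4 in MI/RI. Every MI/RI value was above every sham value, at an exact permutation p of 0.1, the smallest that 3 rats against 3 allow. The ratio of Cd74 to RT1-Ba overlapped between the groups (exact permutation p = 0.2).

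The rise of the class II genes depended on the scaling of the libraries. When FPKM was rescaled so that the 13 mitochondrial mRNAs no longer counted towards a library's total, the median log2 difference of all genes was -0.46. Cd74 then stayed higher at 0.95 (limma adjusted p = 0.0095), whereas RT1-Ba was at 0.42 (adjusted p = 0.26), RT1-Bb at 0.58 (adjusted p = 0.17), RT1-Da at 0.27 (adjusted p = 0.51) and RT1-Db1 at 0.14 (adjusted p = 0.74) in limma. Under quantile normalization RT1-Ba, RT1-Da and RT1-Db1 also lost their calls (limma adjusted p = 0.41, 0.44 and 0.32). With median centring RT1-Da and RT1-Db1 lost theirs (limma adjusted p = 0.11 and 0.16). Relative to the median gene of each setting, Cd74 stood 0.77 to 1.70 above it on the log2 scale, RT1-Bb 0.77 to 1.26, RT1-Ba 0.39 to 1.12, RT1-Da 0.37 to 1.02 and RT1-Db1 0.25 to 0.86. The direction of these 5 genes was the same in every alternative run.

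**Figure D2:**
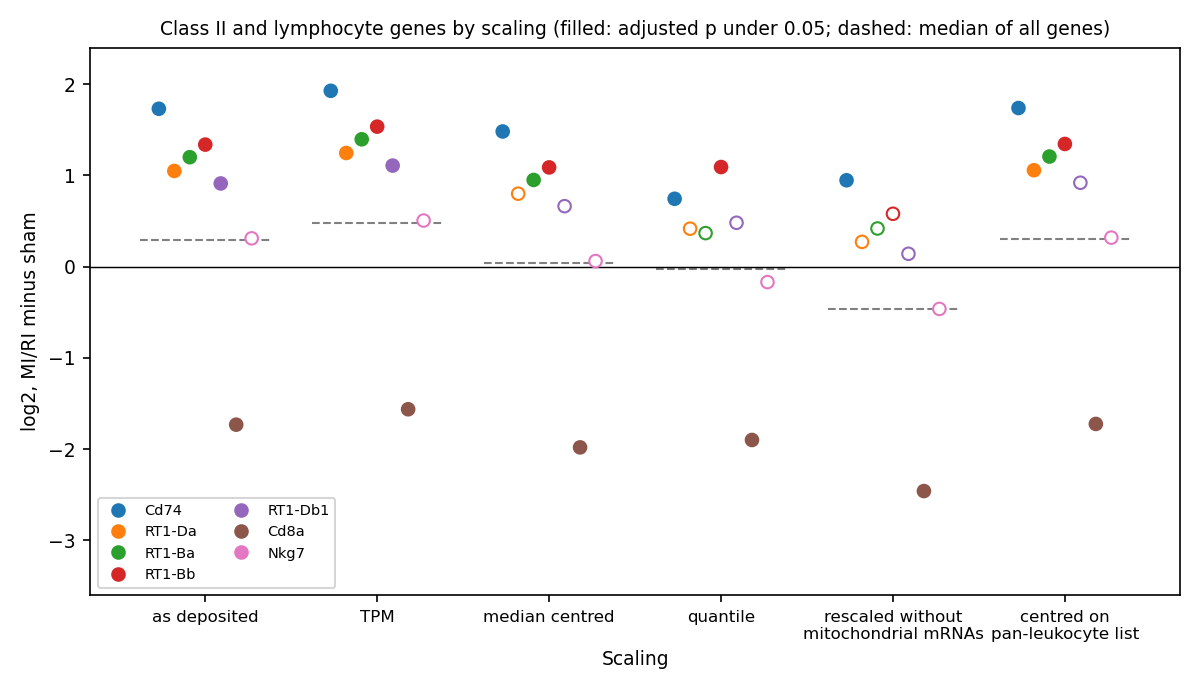
Log2 difference, MI/RI minus sham, of the 7 genes tested under 6 scalings of the FPKM values, with filled points at a limma adjusted p under 0.05 and a dashed line at the median of all genes. Cd74 is filled in all 6 scalings and Cd8a is filled and below 0 in all 6, whereas Nkg7 lies at -0.17 under quantile normalization and at -0.46 under the rescaling without mitochondrial mRNAs.

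Ciita, the gene of the class II transactivator, was not called. It was at 0.244, 0.125 and 0.320 FPKM in sham and 0.140, 0.165 and 0.182 FPKM in MI/RI, with the groups overlapping. These values stand for 46 to 113 fragments in sham and 38 to 50 in MI/RI. Ciita was below the filter of 0.5 FPKM, and in a fit of all 19226 genes with a value above 0 the log2 difference was -0.29 (SE 0.31, limma adjusted p = 0.57). In that fit 11.4% of genes were called higher and 3.32% lower. The ratio of Cd74 to Ciita was 378, 429 and 207 in sham and 1840, 1430 and 1090 in MI/RI, without overlap between the groups (exact permutation p = 0.1, the smallest possible).

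RFX, CREB and NF-Y are the factors bound at the X and Y boxes. Of the 7 genes of this list (Rfx5, Rfxap, Rfxank, Creb1, Nfya, Nfyb and Nfyc), 6 were tested and none was called in limma, with a median log2 difference of -0.17 beside 0.29 for all genes. Without adjustment, p was under 0.05 for 1 of the 6, Nfya. Rfxank was at 0.48 (adjusted p = 0.22), Rfx5 at -0.60 (adjusted p = 0.13) and Nfya at -0.64 (adjusted p = 0.088) in limma. In the rescaling without mitochondrial mRNAs 4 of the 6 were called lower (median -0.92), and 2 were with median centring and 2 with quantile normalization.

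Upstream of Ciita, interferon gamma signals through its 2 receptor chains and JAK kinases. Of 5 genes tested in this list, 2 rose. Ifngr2, the signaling chain of the receptor, rose from 2.43 ± 0.489 to 6.07 ± 0.810 FPKM (SD, n = 3; log2 difference 1.30, SE 0.24, limma adjusted p = 0.0050), and Jak2, a kinase bound to it, by 1.07 (SE 0.25, limma adjusted p = 0.012). Both lost their calls, with the direction kept, in the rescaling without mitochondrial mRNAs (limma adjusted p = 0.15 and 0.48). Irf1, a target of the pathway and an activator of Ciita, was at 0.36 (limma adjusted p = 0.33) and lay below 0 in that rescaling (-0.41) and under quantile normalization (-0.13). Ifng itself was at 0, 1 and 2 fragments in sham and at 0 in each MI/RI rat, too few to compare.

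The genes that load peptide onto class II rose in part. Of 7 listed genes 6 were tested and 4 rose, with a list median of 0.76 on the log2 scale beside 0.29 for all genes, which turned to -0.01 in the rescaling without mitochondrial mRNAs, where none of the 6 was called higher. Under quantile normalization 0 of the 6 were called higher and 1 lower, and with median centring 2 were called higher. Lgmn, a lysosomal endopeptidase that trims invariant chain and antigen, was at 9.72, 10.2 and 7.87 FPKM in sham and at 32.2, 16.0 and 19.4 FPKM in MI/RI (log2 difference 1.22, limma adjusted p = 0.012). RT1-DMb and RT1-DMa, the chains of the peptide exchange factor DM, rose by 1.15 and 0.82 (limma adjusted p = 0.0082 and 0.022). Ifi30, a lysosomal thiol reductase, rose by 0.70 (limma adjusted p = 0.036) and lay at -0.08 in the rescaling.

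RT1-DOa, a chain of DO, which restrains DM and is typical of B cells, was not called. It was at 1.78, 1.17 and 2.48 FPKM in sham and at 1.14, 1.34 and 1.59 FPKM in MI/RI (log2 difference -0.34, limma adjusted p = 0.40). In the rescaling without mitochondrial mRNAs it was called lower, at -1.08 (limma adjusted p = 0.035). The ratio of RT1-DMb to RT1-DOa was 3.67, 3.68 and 2.06 in sham and 12.4, 8.12 and 6.58 in MI/RI, with the groups apart at the smallest exact permutation p of 0.1. Ctss, the cathepsin that makes the last cuts of invariant chain, was at 8.02 ± 0.257 FPKM in sham and 7.71 ± 0.888 FPKM in MI/RI (SD, n = 3; log2 difference -0.06, limma adjusted p = 0.84). Ctss lay at 0.13 on the TPM scale and was called lower under quantile normalization (-0.60, limma adjusted p = 0.047) and in the rescaling without mitochondrial mRNAs (-0.84, limma adjusted p = 0.027).

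Class I molecules show peptides to CD8+ T cells and are made by nearly all cells. None of 7 class I presentation genes tested was called in limma, 0 of them had an unadjusted p under 0.05, and the median log2 difference was 0.05. In the rescaling without mitochondrial mRNAs 3 of the 7 were called lower (median -0.73), and 2 were with quantile normalization. B2m, the light chain of class I, was at 358, 406 and 334 FPKM in sham and 393, 386 and 333 FPKM in MI/RI. The groups overlapped, but B2m was called lower under quantile normalization (-0.93, limma adjusted p = 0.021) and in the rescaling without mitochondrial mRNAs (-0.77, limma adjusted p = 0.037). Nlrc5, the transactivator of class I genes, was at 0.685 ± 0.130 and 0.576 ± 0.0574 FPKM (SD, n = 3; log2 difference -0.21, limma adjusted p = 0.65). RT1-A1 and RT1-A2 were not analysed here. The difference between the class I and the class II genes was not tested.

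Costimulatory genes, whose products give T cells the second signal beside class II, included 2 that rose among 4 tested. Cd86 was at 0.193, 0.351 and 0.280 FPKM in sham and at 0.854, 1.39 and 1.21 FPKM in MI/RI (log2 difference 1.74, SE 0.35, limma adjusted p = 0.0073). Cd86 passed the filter only through its MI/RI values, and it was also called higher without a filter (limma adjusted p = 0.022). Cd40 rose by 0.78 (limma adjusted p = 0.044), a call lost with the replicate number as a block (adjusted p = 0.058), with quantile normalization (adjusted p = 0.09) and with median centring (adjusted p = 0.16) in limma. In the rescaling without mitochondrial mRNAs neither was called, with Cd86 at 1.08 (limma adjusted p = 0.079) and Cd40 at 0.04 (limma adjusted p = 0.93).

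**Figure D3:**
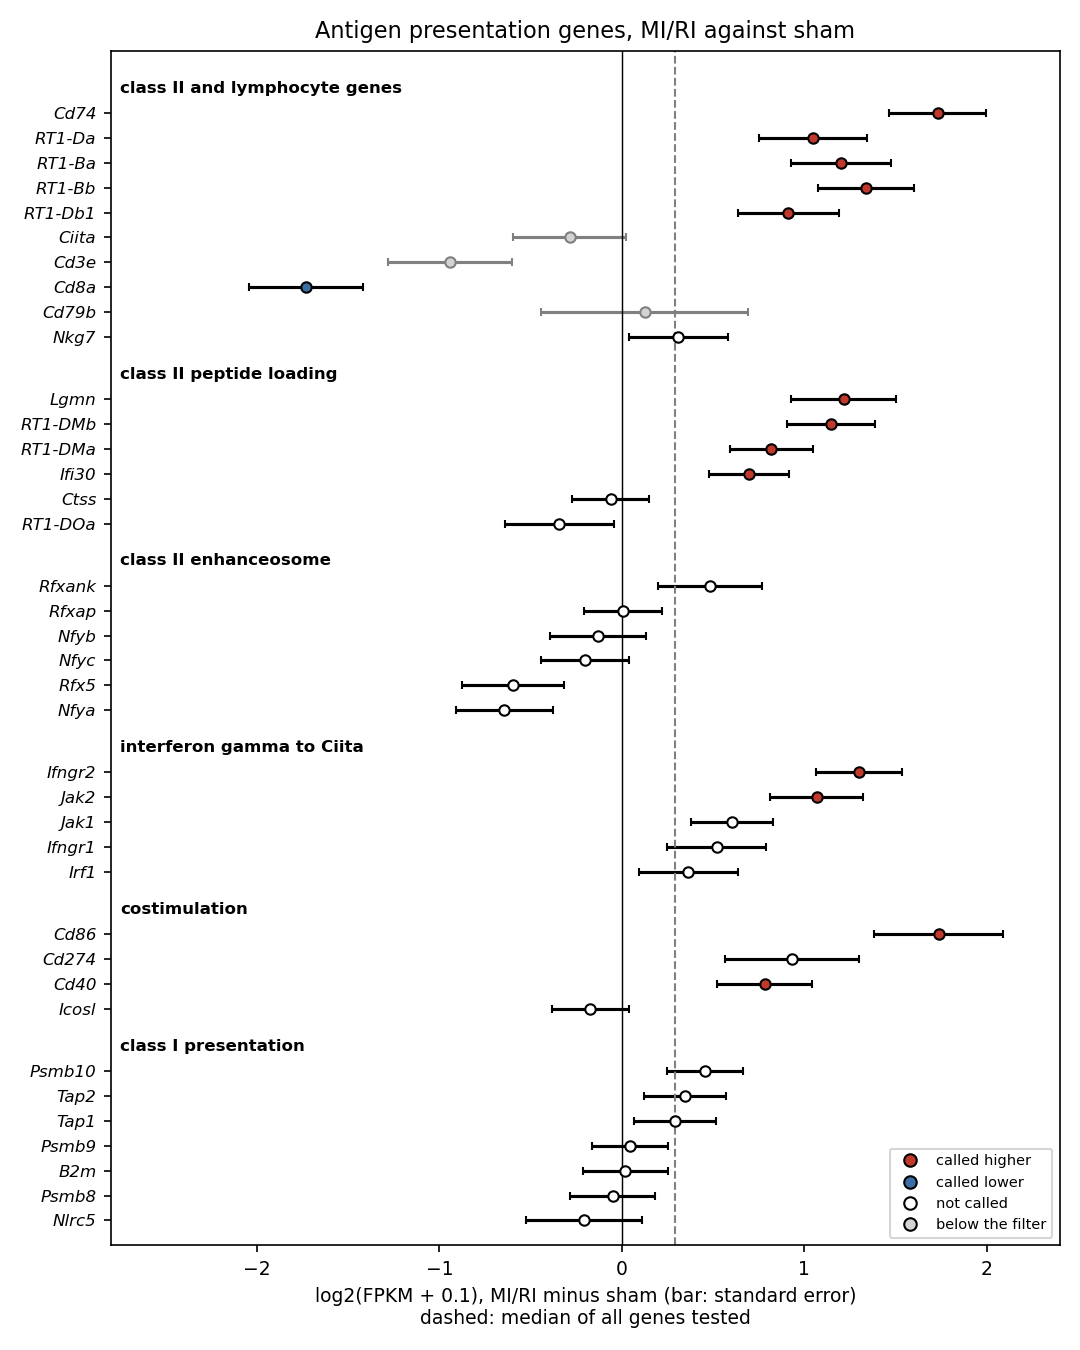
Log2 difference, MI/RI minus sham, with its standard error, for the 10 genes and for lists of antigen presentation genes, with a dashed line at the median of all genes tested (0.29). Red marks genes called higher and blue those called lower, white those not called and grey those below the filter; the class II chains and Cd74 are red, the enhanceosome and class I lists hold only white points, and Cd8a is blue.

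Cd8a encodes the alpha chain of CD8, a coreceptor of cytotoxic T cells that rat NK cells also carry. It fell in MI/RI. It was at 2.30, 2.73 and 4.03 FPKM in sham and 1.23, 0.639 and 0.678 FPKM in MI/RI. Every MI/RI rat was below every sham rat. The means were 3.02 ± 0.897 and 0.849 ± 0.332 FPKM (SD, n = 3), a log2 difference of -1.73 (SE 0.31, limma adjusted p = 0.0049). The values stand for 135 to 268 fragments in sham and 35 to 63 in MI/RI. Only 1.44% of genes tested had a smaller log2 difference, and among 2462 genes of like level 98.7% had a larger one. The call held in all 17 alternatives in which Cd8a was tested, at log2 differences of -2.46 to -1.11.

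Cd3e encodes a signaling chain of the T cell receptor complex, found on all T cells. It was at 0.567, 0.324 and 0.418 FPKM in sham and at 0.236, 0.0986 and 0.209 FPKM in MI/RI. The groups did not overlap (exact permutation p = 0.1, the smallest possible), but the gene lay below the filter, at 54 to 80 fragments in sham and 13 to 29 in MI/RI. In the fit without a filter the log2 difference was -0.94 (SE 0.34, limma adjusted p = 0.11). It passed in the rescaling without mitochondrial mRNAs, at -1.50 (limma adjusted p = 0.038).

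Other T cell genes had values in the same direction. Of 16 listed genes 15 were in the table and 9 were tested, and all 9 had a log2 difference below 0, with a median of -0.77 beside 0.29 for all genes. Of these, 3 fell, and 4 did with the replicate block, which adds Cd2 (adjusted p = 0.039 in limma, 0.14 without the block). On the TPM scale 1 of the 9 was called, Cd3g, and in the rescaling without mitochondrial mRNAs 7 of the 9 were called lower (median -1.48). Cd3d and Cd27 passed the filter only through sham, with MI/RI means of 0.326 and 0.423 FPKM. Without a filter all 15 genes lay below 0 (median -0.77), and 3 were called lower in limma, Cd3g, Cd6 and Cd8b. Cd3g, another chain of the receptor complex, was at 4.22, 3.62 and 5.33 FPKM in sham and at 2.42, 1.08 and 2.08 FPKM in MI/RI (log2 difference -1.25, SE 0.31, limma adjusted p = 0.014). Lat, an adaptor below the receptor, fell by 1.19 (limma adjusted p = 0.046), and Tcf7, a T cell transcription factor, by 0.81 (limma adjusted p = 0.039). The groups overlapped in Lat, and without a filter neither Lat nor Tcf7 was called (limma adjusted p = 0.12 and 0.089). Cd8b, the partner of CD8 alpha on cytotoxic T cells, was below the filter at 17, 27 and 32 fragments in sham and 6, 2 and 4 in MI/RI. In the fit without a filter it fell by 1.22 on the log2 scale (limma adjusted p = 0.028). The summed level of the 15 genes ran from 14.8 to 25.0 FPKM in sham and from 7.58 to 11.8 FPKM in MI/RI, without overlap. Of the 15 genes, 12 were highest in sham replicate 3. Relative to the sham mean, the sum was at 0.761, 0.947 and 1.29 in sham replicates 1 to 3. Cd4 was not analysed here.

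Nkg7 encodes a granule protein of NK cells and cytotoxic T cells, and it was not called. It was at 3.93, 6.74 and 7.19 FPKM in sham and at 7.59, 7.68 and 6.29 FPKM in MI/RI. The groups overlapped, with sham replicate 1 apart at the low end. The log2 difference was 0.31 (SE 0.27, limma adjusted p = 0.40), close to the 0.29 of the median gene, and it lay below 0 under quantile normalization (-0.17) and in the rescaling without mitochondrial mRNAs (-0.46). The ratio of Cd8a to Nkg7 was 0.587, 0.405 and 0.560 in sham and 0.162, 0.0831 and 0.108 in MI/RI, apart at the smallest exact permutation p of 0.1. The ratio of Cd3e to Nkg7 was also lower in every MI/RI rat, at the same p in the exact permutation test.

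Among NK and cytotoxic markers, 11 were tested and 3 fell, with a median of -0.51. Klrd1, the CD94 chain of NK receptors, was at 1.47, 3.81 and 6.49 FPKM in sham and at 0.680, 1.48 and 0.951 FPKM in MI/RI, and the groups overlapped narrowly (log2 difference -1.66, SE 0.48, limma adjusted p = 0.025). Tbx21, a transcription factor of NK cells and T helper 1 cells, fell by 1.52 (limma adjusted p = 0.018) and Ctsw, a cathepsin of cytotoxic cells, by 0.90 (limma adjusted p = 0.040). Without a filter none of the 3 was called. Of the 11, 6 were called lower with median centring and with quantile normalization, and 8 in the rescaling without mitochondrial mRNAs (median -1.22). Prf1, which encodes perforin, and Cst7, a cystatin of cytotoxic granules, were at 0.55 and 0.43 (limma adjusted p = 0.22 and 0.19). The summed level was 39.2 to 63.4 FPKM in sham and 33.2 to 36.5 FPKM in MI/RI. Ccl5 weighs most in this sum, at means of 20.6 FPKM in sham and 15.8 FPKM in MI/RI, and it was not called (limma adjusted p = 0.2). Of the 13 genes summed, 8 were highest in sham replicate 3, where the sum was 1.26 times the sham mean. Ncr1 and Gzmb were not analysed here.

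Cd79b encodes a signaling chain of the B cell receptor, and its mean over MI/RI rested on 1 rat. It was at 0.249, 0.521 and 0.490 FPKM in sham and at 1.19, 0.251 and 0.266 FPKM in MI/RI, equal to 17, 42 and 38 fragments and to 71, 16 and 16 fragments. MI/RI replicate 1 was the highest of the 6 rats, and the other two MI/RI rats were at the level of the lowest sham rat. The log2 difference was 0.12 in the fit without a filter (SE 0.57, limma adjusted p = 0.90). Without MI/RI replicate 1 it was -0.49 (limma adjusted p = 0.45).

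Other B cell genes were read in the same rat. Of 13 other B cell genes with a value above 0, 9 were highest in MI/RI replicate 1 and 4 in sham replicate 3. Cd79a, the partner of Cd79b, was at 85, 38 and 12 fragments in MI/RI replicates 1 to 3, and Ms4a1, which encodes CD20, at 18, 1 and 0. Pou2af1, a B cell coactivator, was at 40, 2 and 7 fragments, and Tnfrsf13c, the BAFF receptor gene, at 12, 0 and 0. In sham these 4 genes ran from 40 to 60, 4 to 20, 2 to 13 and 1 to 4 fragments. Of 4 B cell genes tested, none was called in limma, and without adjustment p was under 0.05 for 1, Blnk. The summed level was 7.11 to 10.3 FPKM in sham, 13.5 FPKM in MI/RI replicate 1, and 8.98 and 8.32 FPKM in MI/RI replicates 2 and 3. The class II chains were not highest in that rat, and MI/RI replicate 2 was the highest of the 6 for all 4 of them.

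**Figure D4:**
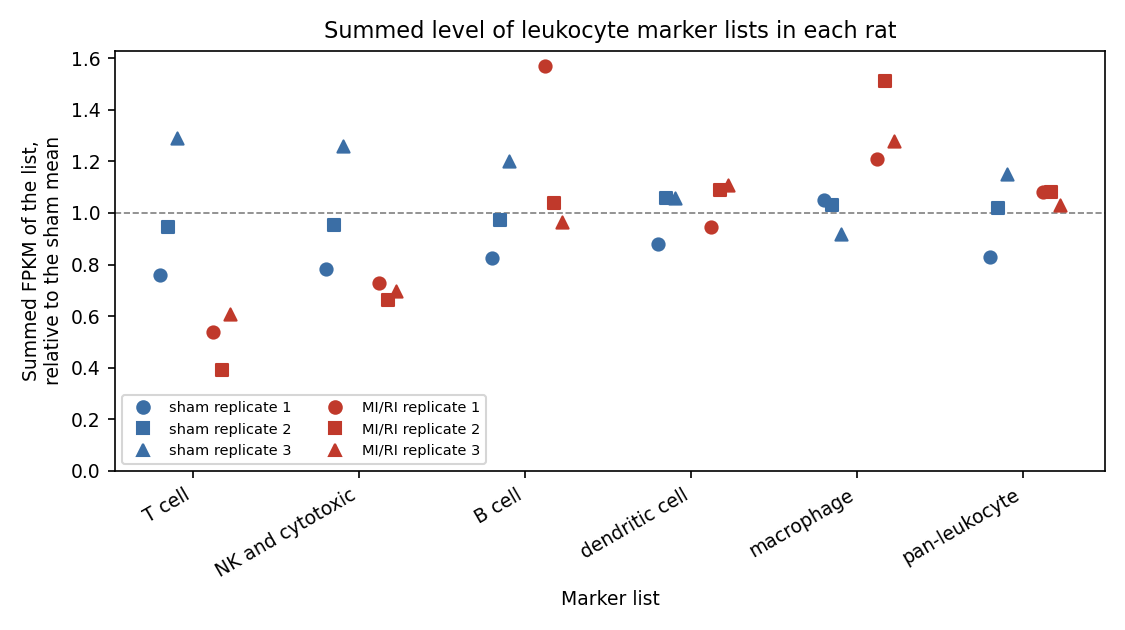
Summed FPKM of 6 leukocyte marker lists in each rat, divided by the mean of the 3 sham rats, so that abundant genes weigh most. The T cell list lies at 0.391 to 0.609 in MI/RI, the macrophage list at 1.21 to 1.51, and the B cell list at 1.57 in MI/RI replicate 1 and at 1.04 and 0.967 in MI/RI replicates 2 and 3.

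Markers of the other cells that carry class II moved unequally beside it. Of 11 macrophage genes, all tested, 2 rose and 2 fell. The summed level of the 11 genes was 68.0 to 77.5 FPKM in sham and 89.4 to 112 FPKM in MI/RI, without overlap. C1qa, C1qb and C1qc weigh most in this sum, with C1qb at means of 17.62 FPKM in sham and 30.14 FPKM in MI/RI. The median log2 difference of the 11 genes was 0.299, beside 0.29 for all genes, so the sum does not stand for a rise across the list. Cd14, a lipopolysaccharide coreceptor of monocytes and macrophages, rose by 1.73 (limma adjusted p = 0.0043), and C1qb, a complement chain made by macrophages, by 0.78 (limma adjusted p = 0.032), although C1qb lay at -0.06 under quantile normalization and at -0.00 in the rescaling without mitochondrial mRNAs. C1qa and C1qc were at 0.37 and 0.51 and not called (limma adjusted p = 0.21 and 0.12). Both lay below 0 under quantile normalization (-0.28 and -0.31) and in that rescaling (-0.41 and -0.27). Cd14 was at 0.97 in that rescaling (limma adjusted p = 0.052), where 0 of the 11 genes were called higher, 3 were called lower and 10 lay below 0. Cd163 and Mrc1, receptors typical of resident macrophages, fell by 1.38 and 0.77 (limma adjusted p = 0.0057 and 0.040). The call of Mrc1 was lost on the TPM scale (adjusted p = 0.1) and without a filter (adjusted p = 0.08) in limma. Lyve1, of the same list, was at -0.20 (limma adjusted p = 0.57), with the groups overlapping. Of the 11 genes, 8 lay above 0 and 3 below in the reported fit. Of 6 dendritic cell genes tested 1 rose, Irf8, a transcription factor also found in macrophages and B cells, by 0.98 (limma adjusted p = 0.010). Irf8 was at 0.23 and not called in the rescaling without mitochondrial mRNAs (limma adjusted p = 0.59). Flt3, a receptor that defines dendritic cells, stayed between 30 and 47 fragments in all rats, and Itgax was at -0.39 (limma adjusted p = 0.48). The part of these cells in the class II values was not tested.

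For leukocytes as a whole the groups overlapped. None of 10 pan-leukocyte genes was called in limma, where 2 had an unadjusted p under 0.05, and their summed level was 72.9 to 101 FPKM in sham and 90.5 to 94.9 FPKM in MI/RI. Ptprc, which encodes CD45, was at 0.905 ± 0.284 FPKM in sham and 0.414 ± 0.0424 FPKM in MI/RI (SD, n = 3; log2 difference -0.93, limma adjusted p = 0.067). It was called lower with median centring (limma adjusted p = 0.026) and in the rescaling without mitochondrial mRNAs (limma adjusted p = 0.016), where 4 of the 10 genes were called lower and all 10 lay below 0 (median -0.65). With each rat centred on this list, Cd74, RT1-Da, RT1-Ba and RT1-Bb were still called higher, and RT1-Db1 was at 0.92 (limma adjusted p = 0.061). Neutrophil genes rose in 5 of 6 tested (median 2.0) and cardiomyocyte genes in 6 of 8 (median 2.1). Of the neutrophil genes, Mmp8, Retnlg and Csf3r passed the filter only through MI/RI, with sham means of 0.176, 0.191 and 0.258 FPKM. The neutrophil count and median are therefore partly fixed by the filter. Without a filter, 6 of 10 neutrophil genes (median 1.65) and 4 of 8 cardiomyocyte genes (median 2.1) were called higher in limma. No endothelial gene of 8 and no red blood cell gene of 3 was called in limma, where 2 and 1 had an unadjusted p under 0.05, and 2 of 7 fibroblast genes rose, of which Col1a1 lay at -0.12 under quantile normalization. Of the 8 endothelial genes, 7 were called lower with quantile normalization and 5 in the rescaling (medians -0.968 and -0.996), and 1, Kdr, was called higher with the replicate block (limma adjusted p = 0.045). Of the 3 red blood cell genes 1 was called lower, and of the 7 fibroblast genes 2 were lower and 0 higher, in each of those 2 scalings. The summed cardiomyocyte level was 2927 to 9083 FPKM in sham and 19170 to 29520 FPKM in MI/RI, and the part of this difference in the values of the class II genes was not tested.

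**Figure D5:**
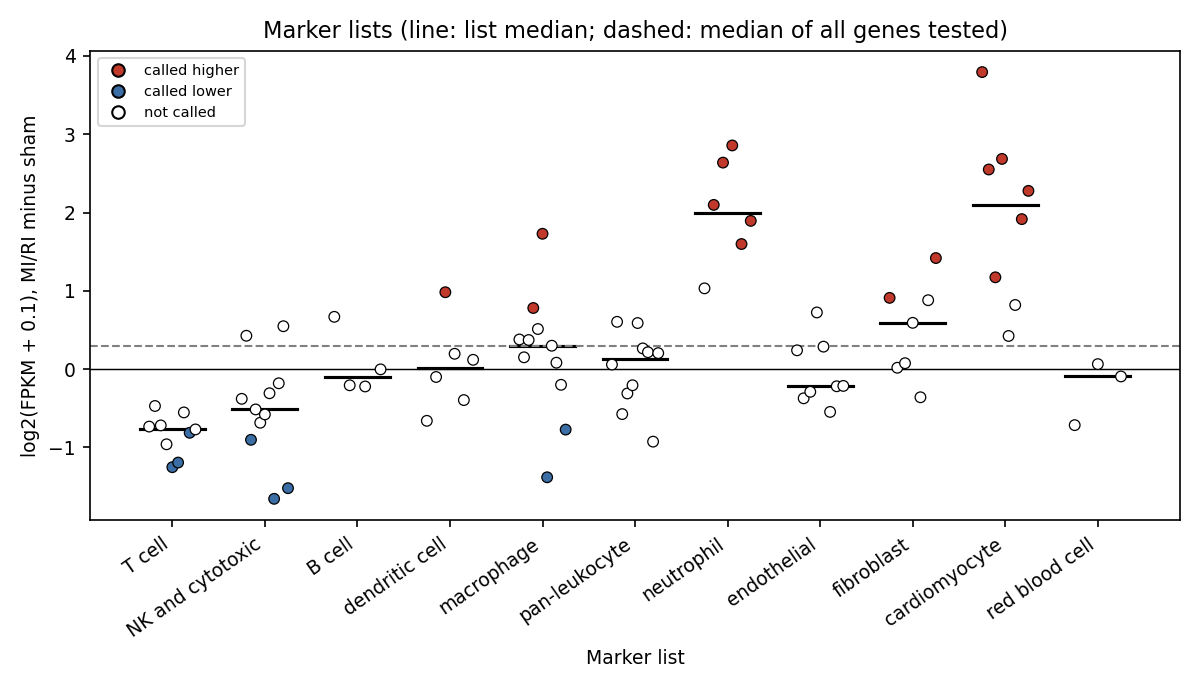
Log2 difference, MI/RI minus sham, of each marker gene tested, by cell type, with a line at the list median and a dashed line at the median of all genes (0.29). All 9 T cell genes lie below 0, the neutrophil and cardiomyocyte medians lie at 2.0 and 2.1, and the macrophage list holds 2 genes called higher and 2 called lower.

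The profile of Cd74 over the 6 rats was compared with every other gene tested by the root mean square distance of the centred log2 values. The 5 nearest were Coa6 (0.0793), Yif1b (0.0971), Znrd2 (0.132), Ndufv2 (0.143) and Mrpl41 (0.151). The class II chains lay farther away, at 0.362 for RT1-Bb, 0.369 for RT1-Ba, 0.462 for RT1-Da and 0.510 for RT1-Db1. All these profiles share the same 6 libraries and the difference between the groups. In each of the 5 nearest genes the highest rats were sham replicate 1 in sham and MI/RI replicate 1 in MI/RI, as in Cd74. The genes were chosen by nearness to Cd74, so this likeness is no finding. In the chain genes neither rat was the highest of its group. Both rats also had the highest summed cardiomyocyte level of their groups (9083 and 29520 FPKM) and the lowest share of mitochondrial mRNAs (80.1% and 61.8%). The part of these differences in the profile of Cd74 was not tested.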

How the data were processed

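RNA-seq of myocardium from 3 sham and 3 MI/RI rats was analysed. The authors deposited 1 table of FPKM values for 30452 genes, 7092 of them without a symbol, and per the labels a stranded total RNA kit was used. The submitters' processing notes name STAR and HTSeq; versions, genome build and annotation are not given in the sources used here. Rows sharing a symbol were summed, which left 28293 genes. Each of the 10 genes examined had 1 row.

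Log2(FPKM + 0.1) was tested with limma 3.58.1 (lmFit, eBayes with trend) in R 4.3.3 on the 10942 genes with a mean of at least 0.5 FPKM, with Benjamini-Hochberg adjustment over all of them and a threshold of 0.05. A fold change on this scale understates the change of low genes. Genes below the filter were read from the same fit without a filter. The filter takes the mean over all 6 samples, so a gene low in 1 group can pass it through the other. For single values an exact two-sided permutation over the samples was used; with 3 against 3 its p cannot go below 0.1. Fragment counts are the smallest whole numbers, within a tolerance of 0.01, that a gene's FPKM steps allow, and a common multiple of them is possible. Finding these counts used relative depths of 0.873 to 1.18 against sham replicate 1, which were first read from the FPKM ratios of low genes. Sequences are from RefSeq (GRCr8); no coordinates of the authors' build were used.

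The genes and lists were chosen with earlier results of these data known. Named are the 10 genes, the 2 highest and 2 lowest of each list and preset defining genes. Other genes (Ifi30, Tcf7, Ctsw, Cd2, Cd6, Cd27, Ccl5, Lyve1, C1qa, C1qc, Pou2af1, Tnfrsf13c) were named after their values were seen. Replicate numbers come from the labels, which do not say what a number shares. The deviations of same-numbered rats from their group means correlated at 0.203, 0.117 and 0.118, all over 0.1, so limma was also fitted with replicate number as a block. Other alternatives were pseudocounts of 1 and 0.01, no filter or a filter at 5 FPKM, TPM, median centring, quantile normalization, rescaling without the 13 mitochondrial mRNAs, centring on the pan-leukocyte list, limma without trend, the highest row per symbol, and leaving out each rat.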

Additional observations from a re-analysis of the deposited data

How the results depend on the processing

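Of the 10 genes, 5 were called higher and 1 lower in the reported fit. The count of higher calls was 3 without a filter and with median centring, 2 with quantile normalization and 1 in the rescaling without mitochondrial mRNAs, and 3 to 5 when 1 rat was left out. It was 3 without sham replicate 2 and without MI/RI replicate 2. At a filter of 5 FPKM 0 were called lower, since Cd8a was then not tested; leaving out 1 rat gave 1. Among all genes, 2790 were higher, against 1441 with quantile normalization and 794 in the rescaling, and 1528 to 2557 when 1 rat was left out, lowest without sham replicate 3. Genes lower numbered 805, against 166 at a filter of 5 FPKM, 504 with TPM, 1554 with median centring, 1559 with quantile normalization and 2856 in the rescaling, and 309 to 881 when 1 rat was left out, with 309 without sham replicate 2 and 359 without sham replicate 3. The share of calls that were higher was 77.6%, and 91.9% at a filter of 5 FPKM, 87.3% with TPM, 56.5% with median centring, 48.0% with quantile normalization and 21.8% in the rescaling. With the replicate block 3085 genes were higher and 895 lower, 5 and 1 of them among the 10 genes, and the block changed the call of none of the 10.

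Without 1 rat, Cd79b ranged from -0.49 to 0.45. Nkg7 turned to -0.17 with quantile normalization and -0.46 in the rescaling. Cd79b turned to -0.12 with median centring, -0.52 in the rescaling, -0.14 without sham replicate 1 and -0.49 without MI/RI replicate 1. Cd74 kept its call in all 18 alternatives, RT1-Bb in 16 of 17, RT1-Ba in 16 of 18, RT1-Da in 12 of 18 and RT1-Db1 in 9 of 18. The cause of these changes was not tested. Depth limits Ciita, Cd3e and Cd79b, which rest on 13 to 113 fragments in a rat.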
